A study of Mus musculus with 12 samples.

Results

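The endothelin system was followed through 5 genes in ribosome-bound RNA of enteric glia: the receptors Ednrb and Ednra, the ligands Edn1 and Edn3, and the converting enzyme Ece1. They were taken by symbol from the assembled loci that hold an annotated Ensembl transcript, and each matched 1 such locus among 24394 symbols. Of the 5 genes, 4 reached 1 FPKM in at least 3 libraries and entered the tests with 12778 genes in all; Ednra did not. FPKM counts fragments relative to transcript length and to the mapped fragments of the library.

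Endothelins are short peptides cut from larger precursors, first by furin-type proteases and then by endothelin-converting enzymes. They act on a pair of G protein-coupled receptors: the A type prefers endothelin-1, while the B type binds all endothelins with similar affinity. Endothelin-3 signalling through the B receptor is needed for neural crest cells to colonise the gut, and loss of either gene in mice or humans leaves the distal bowel without ganglia, as in Hirschsprung disease. In the adult, the B receptor is made by glia, endothelium and other cells, and in astrocytes endothelin-1 is known as a signal linked to reactivity.

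The mice were C57BL/6 animals of the genotype Sox10::CreERT2+/- / Rpl22tm1.1Psam/J, fed tamoxifen chow at 400 mg/kg for 2 weeks and plain chow for the week after. All groups thus carried the same Sox10-driven Cre and the same tagged ribosomal protein, and only cells in which Sox10 drove recombination were meant to contribute RNA. Each animal had daily intraperitoneal injections over 3 days that began 24 hours before an enema of 0.1 ml, and its distal colon myenteric plexus was taken 48 hours after the enema. The 4 groups held 3 libraries each. DNBS_GR159897 had 5 mg of dinitrobenzene sulfonic acid (DNBS, a hapten that causes colitis) in 50% ethanol by enema and the neurokinin-2 receptor antagonist GR159897 at 0.5 mg/kg in 0.1% DMSO. DNBS_Vehicle had the same enema and 0.1% DMSO. Saline_GR159897 had a saline enema and the antagonist. Saline_Vehicle had a saline enema and 0.1% DMSO. No ethanol is listed for the saline enema, which means that DNBS and ethanol cannot be told apart. Ages are not given in the labels, and nothing in them ties libraries to cages, litters or days, so the p-values measure the spread between these libraries.

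The tagged population was checked against glial markers. S100b, a calcium-binding protein of glia, was at 1.17 FPKM in DNBS_GR159897 replicate 1 and at 94.0 to 288 FPKM in the other 11 libraries. That library stood apart: the epithelial genes Epcam (183 FPKM) and Muc2 (350 FPKM) were high there, and 22.6% of its summed FPKM lay on loci with an annotated transcript. This annotated share was 56.4 and 64.5% in replicates 2 and 3 of DNBS_GR159897. It was 75.6, 53.8 and 84.0% in DNBS_Vehicle and 75.4 to 95.1% in the saline libraries, lowest there in Saline_GR159897 replicate 2. Acta2, the actin of smooth muscle, was at 47.4 to 1005 FPKM, so RNA of other cells was present. The endothelial markers Pecam1 and Cdh5 reached at most 1.3 and 2.73 FPKM. Eng, Cldn5 and Lyve1 of the same list reached 22.71, 14.59 and 7.11 FPKM. In such mixed RNA, fewer cells of a type and less RNA per cell cannot be told apart. Changes of the 4 tested members that use DNBS_GR159897 replicate 1, and calls among the other listed genes, are given with and without that library.

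Positions were read through the Ensembl transcript identifiers from the GENCODE annotation (GRCm38). Ednrb (ENSMUSG00000022122) lies at chr14:103814625-103844402 on the minus strand, and Ednra (ENSMUSG00000031616) at chr8:77663031-77724464 on the minus strand. Edn1 (ENSMUSG00000021367) lies at chr13:42301476-42307990, Edn3 (ENSMUSG00000027524) at chr2:174760619-174784042 and Ece1 (ENSMUSG00000057530) at chr4:137862237-137965229, all on the plus strand. Exons of Ednra overlap 4933431K23Rik and exons of Edn1 overlap Gm47118, each on the opposite strand. The values do not keep strand, so reads of these genes cannot be told apart from those of their partners.

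The start regions of Ednrb and Edn1 are shown because Ednrb was the 1 member called after DNBS, and Edn1 was the ligand whose level ran opposite to it across libraries. The Ednrb call held only on average over both drug arms as reported. It was lost in 8 of 9 other settings and in 9 of 12 fits without 1 library. Each window runs from 250 bases before to 50 bases after the start of the RefSeq gene, on GRCm38.p6, and is written 5′ to 3′ on the strand of the gene. The Ednrb window is chr14:103843652-103843951 on the minus strand and the Edn1 window is chr13:42301226-42301525 on the plus strand. The Ednrb window lies wholly inside the GENCODE gene, whose 5′ end is at 103844402, so its positions hold for the RefSeq start alone. Capitals mark matches to the motifs searched, on either strand.
Ednrb: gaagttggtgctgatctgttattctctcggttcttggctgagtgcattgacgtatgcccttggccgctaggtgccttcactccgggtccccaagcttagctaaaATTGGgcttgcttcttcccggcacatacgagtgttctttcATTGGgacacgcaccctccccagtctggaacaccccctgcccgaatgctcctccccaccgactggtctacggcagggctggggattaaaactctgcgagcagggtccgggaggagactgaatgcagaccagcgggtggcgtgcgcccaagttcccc
Edn1: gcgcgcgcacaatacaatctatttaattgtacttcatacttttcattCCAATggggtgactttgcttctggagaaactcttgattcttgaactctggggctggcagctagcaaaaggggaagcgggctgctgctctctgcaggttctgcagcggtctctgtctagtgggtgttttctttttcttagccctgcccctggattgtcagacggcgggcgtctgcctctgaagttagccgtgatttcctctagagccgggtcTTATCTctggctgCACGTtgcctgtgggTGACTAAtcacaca
The motifs searched were the SOX cores ACAAAG and ACAATG, the AP-1 sites TGACTCA and TGACTAA, the GATA site AGATAA, the hypoxia response core ACGTG and the CCAAT box CCAAT, each on both strands. In the Ednrb window the capitals are a pair of CCAAT boxes on the opposite strand, which begin at −146 and −106 relative to the start. In the Edn1 window they are a CCAAT box at −203, AGATAA at 9 and ACGTG at 22 on the opposite strand, and TGACTAA at 37 on the gene's own strand. The CCAAT box was found in 37.4% of all 32851 windows in the table, ACGTG in 19.6%, AGATAA in 11.2% and TGACTAA in 2.35%. ACAAAG (18.7% of windows), ACAATG (12.6%) and TGACTCA (5.2%) had no match in either window. These are matches of letters only, and nothing on binding was measured.

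Ednrb, the B receptor, was the main receptor transcript of the tagged RNA and the 1 member called lower after DNBS, on average over both drug arms. Over both drug arms it averaged 6.75 ± 5.67 FPKM in DNBS libraries and 25.5 ± 14.2 FPKM in saline libraries (SD, n = 6 each). After DNBS, replicates 1 to 3 had 2.92, 5.19 and 9.04 FPKM with GR159897 and 4.25, 17.17 and 1.90 FPKM with vehicle. After saline they had 49.73, 6.77 and 22.27 FPKM with GR159897 and 25.14, 19.30 and 29.63 FPKM with vehicle. All DNBS libraries but DNBS_Vehicle replicate 2 were below 10 FPKM, and so was Saline_GR159897 replicate 2. All 3 DNBS_Vehicle libraries lay below all 3 Saline_Vehicle libraries, as for 14.9% of all genes. In the antagonist arm the groups overlapped, since Saline_GR159897 replicate 2 was lower than the highest DNBS_GR159897 library.

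The DNBS change of Ednrb averaged over both drug arms was −1.85 ± 0.52 on the log2(FPKM + 1) scale (SE; 95% interval −2.98 to −0.72; limma adjusted p = 0.0441). It was the 1 member of 4 called in this contrast, against 9.6% of all genes tested (2.76% called higher and 6.83% lower), and the median change of all genes was −0.18. An exact two-sided permutation test of the enema labels within each drug arm, over 400 arrangements, gave p = 0.015 for Ednrb, where the smallest possible p is 0.005 and 5 genes were tested. The call lay close to the threshold, and the averaged contrast was chosen with earlier results of these data known. Without DNBS_GR159897 replicate 1 the change was −1.68 (adjusted p = 0.0718, limma). The call was kept without DNBS_Vehicle replicate 2, Saline_GR159897 replicate 2 or DNBS_GR159897 replicate 3, and was lost without any 1 of the other 9 libraries, with values from −2.22 to −1.53 over the 12 fits.

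Neither DNBS comparison passed on its own for Ednrb. DNBS_Vehicle minus Saline_Vehicle gave −1.96 ± 0.74 (95% interval −3.56 to −0.36; limma adjusted p = 0.296). DNBS_GR159897 minus Saline_GR159897 gave −1.74 ± 0.74 (−3.34 to −0.15; adjusted p = 0.187), and −1.41 without DNBS_GR159897 replicate 1 (adjusted p = 0.402). With limma's library weights, which give DNBS_GR159897 replicate 1 the lowest weight, both passed, at −2.26 (adjusted p = 0.0402) and −1.65 (adjusted p = 0.0454). Replicates 1 to 3 of DNBS_GR159897 had weights of 0.18, 4.22 and 0.47, so that group rested mostly on replicate 2. With weights 514 of 12777 genes were called in the vehicle comparison and 2154 of 12778 in the antagonist comparison. As reported, 0.321% of genes were called in the vehicle comparison and 1.38% in the antagonist comparison, with 0 of 4 members in each. Groups that did not overlap, with DNBS lower, were found for 14.9% of genes in the vehicle comparison, and among the members for Ednrb and Edn3. Non-overlap in either direction was found for 24.4% of genes in that comparison and for 24.2% in the antagonist arm, 7.22% between the saline groups, 10.1% between the DNBS groups and 6.03% between all DNBS and all saline libraries, with 0 members in these last 4.

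GR159897 did not change Ednrb detectably. The difference was −0.28 ± 0.74 for Saline_GR159897 minus Saline_Vehicle (95% interval −1.87 to 1.32; limma adjusted p = 1) and −0.06 ± 0.74 for DNBS_GR159897 minus DNBS_Vehicle (−1.66 to 1.54; adjusted p = 0.984). The DNBS changes of the 2 arms differed by 0.21 ± 1.04 (−2.04 to 2.47; adjusted p = 0.986). All of these intervals are wide and reach well to both sides of 0. Without DNBS_GR159897 replicate 1 the difference between the DNBS groups was 0.27 and the interaction 0.55. By group, Ednrb averaged 5.72 ± 3.09 FPKM in DNBS_GR159897, 7.77 ± 8.22 in DNBS_Vehicle, 26.3 ± 21.8 in Saline_GR159897 and 24.7 ± 5.18 in Saline_Vehicle (SD, n = 3 each). The DNBS groups were thus the lower pair and overlapped each other, and the saline groups were the upper pair and overlapped each other.

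**Figure D1:**
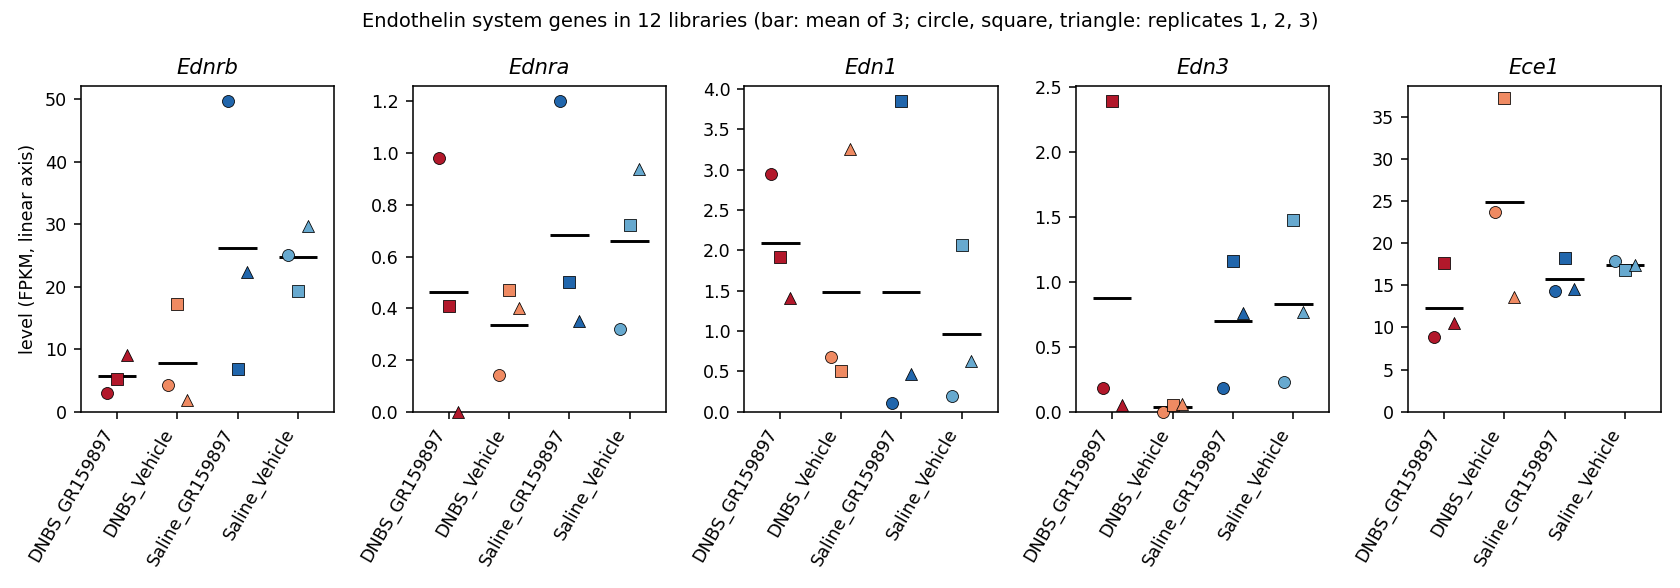
Level of each gene in FPKM (vertical axis, linear, its own range for each gene) in the 12 libraries by group; bars are the means of 3 libraries and circles, squares and triangles are replicates 1, 2 and 3. Ednrb lay below 10 FPKM in 5 of 6 DNBS libraries and in 1 of 6 saline libraries, while Ece1 overlapped between groups and Ednra, Edn1 and Edn3 stayed below 4 FPKM.

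Ednra, the A receptor of smooth muscle and mesenchymal cells, was barely detected. Its levels were 0.98, 0.41 and 0 FPKM in DNBS_GR159897, 0.14, 0.47 and 0.40 in DNBS_Vehicle, 1.2, 0.50 and 0.35 in Saline_GR159897, and 0.32, 0.72 and 0.94 in Saline_Vehicle. It reached 1 FPKM in 1 of 12 libraries, and every pair of groups overlapped. In a fit without the filter on low values its average DNBS change was −0.26 ± 0.22 (95% interval −0.74 to 0.21; limma adjusted p = 0.576).

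Ednrb exceeded Ednra in all 12 libraries. On the scale log2((Ednrb + 1)/(Ednra + 1)) the ratio was 2.22 ± 1.11 in DNBS libraries and 3.81 ± 0.78 in saline libraries (SD, n = 6 each), a description without a test. It ran from 0.99 to 3.63 in DNBS libraries and from 2.37 to 4.53 in saline libraries, so the arms overlapped; in DNBS_GR159897 the mean was 2.73 without replicate 1. With a pseudocount of 0.1 the group means were 3.79 in DNBS_GR159897, 3.70 in DNBS_Vehicle and 5.10 in Saline_Vehicle, against 2.15, 2.29 and 3.95 with a pseudocount of 1, since Ednra lay under 1 FPKM in 11 of 12 libraries.

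Edn1, the precursor of endothelin-1, was low and varied more within groups than between them. After DNBS its level was 2.95, 1.92 and 1.41 FPKM with GR159897 and 0.68, 0.50 and 3.26 FPKM with vehicle. After saline its level was 0.11, 3.85 and 0.47 FPKM with GR159897 and 0.20, 2.07 and 0.63 FPKM with vehicle. DNBS_GR159897 was the group in which all 3 libraries exceeded 1 FPKM; each other group had 1 such library. The highest library of all was Saline_GR159897 replicate 2, and every pair of groups overlapped. The average DNBS change was 0.44 ± 0.41 (95% interval −0.44 to 1.32; limma adjusted p = 0.508), with 0.28 (adjusted p = 0.899) in the vehicle arm and 0.60 (adjusted p = 0.550) in the antagonist arm. The antagonist differences were 0.13 in saline mice and 0.46 in DNBS mice (limma adjusted p = 1 and 0.784), and the interaction was 0.32 (adjusted p = 0.973). Without DNBS_GR159897 replicate 1 the Edn1 change was 0.35 on average, 0.41 in the antagonist arm and 0.27 between the DNBS groups, with an interaction of 0.13.

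Endothelium and epithelium are common sources of endothelin-1, and their markers were present at low levels beside Edn1. The summed level of 12 endothelial markers was 11.6 to 37.4 FPKM in DNBS libraries and 10.9 to 27.4 FPKM in saline libraries. Of the 6 that passed the filter, 0 were called in the average DNBS contrast, and Pecam1 was listed at 0 in Saline_GR159897 replicate 3. The summed level of 11 epithelial markers was 0.79 to 1138 FPKM in DNBS libraries and 3.61 to 30.0 FPKM in saline libraries, with the maximum in DNBS_GR159897 replicate 1, where Edn1 was at 2.95 FPKM. Epcam was listed at 0 in DNBS_GR159897 replicate 3 and Saline_Vehicle replicate 1. Their part in the Edn1 values was not tested.

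Edn3, the precursor of endothelin-3, sat at the edge of detection. After DNBS its level was 0.18, 2.39 and 0.05 FPKM with GR159897 and 0, 0.05 and 0.06 FPKM with vehicle. After saline its level was 0.18, 1.16 and 0.76 FPKM with GR159897 and 0.23, 1.48 and 0.77 FPKM with vehicle. All 3 DNBS_Vehicle libraries lay below all 3 Saline_Vehicle libraries, as for 14.9% of all genes. They also lay below all libraries of Saline_GR159897, for which no share of all genes was computed. DNBS_GR159897 spanned nearly the whole range. The 3 libraries at 1 FPKM or more, through which Edn3 passed the filter, were replicate 2 of DNBS_GR159897, Saline_GR159897 and Saline_Vehicle.

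No comparison of Edn3 passed the test. DNBS_Vehicle minus Saline_Vehicle gave −0.76 ± 0.45 (95% interval −1.74 to 0.22; limma adjusted p = 0.528), DNBS_GR159897 minus Saline_GR159897 gave −0.03 ± 0.45 (−1.01 to 0.95; adjusted p = 0.973), and their average was −0.40 ± 0.32 (−1.09 to 0.30; adjusted p = 0.446). The antagonist difference was −0.09 in saline mice (adjusted p = 1, limma) and 0.64 in DNBS mice (adjusted p = 0.650), and the interaction was 0.73 (adjusted p = 0.957). Without DNBS_GR159897 replicate 1 the Edn3 change was −0.28 on average, 0.19 in the antagonist arm and 0.86 between the DNBS groups, with an interaction of 0.95. A pseudocount of 1 compresses differences at these levels.

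Ece1, the endothelin-converting enzyme that cuts the inactive big endothelins, had similar mean levels after both enemas. After DNBS its level was 8.80, 17.67 and 10.51 FPKM with GR159897 and 23.73, 37.22 and 13.57 FPKM with vehicle. After saline its level was 14.37, 18.28 and 14.58 FPKM with GR159897 and 17.85, 16.81 and 17.36 FPKM with vehicle. The libraries were more widely spread after DNBS: the mean was 18.6 ± 10.6 FPKM in DNBS libraries and 16.5 ± 1.68 FPKM in saline libraries (SD, n = 6 each). The average DNBS change was 0.00 ± 0.31 (95% interval −0.67 to 0.68; limma adjusted p = 0.994). It was 0.39 ± 0.44 in the vehicle arm (adjusted p = 0.782, limma) and −0.38 ± 0.44 in the antagonist arm (adjusted p = 0.633).

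Between the DNBS groups Ece1 averaged 12.3 ± 4.71 FPKM in DNBS_GR159897 and 24.8 ± 11.9 FPKM in DNBS_Vehicle (SD, n = 3 each). The difference was −0.90 ± 0.44 (95% interval −1.86 to 0.05; limma adjusted p = 0.618), and the groups overlapped because DNBS_GR159897 replicate 2 exceeded DNBS_Vehicle replicate 3. In saline mice the antagonist difference was −0.14 (−1.10 to 0.82; adjusted p = 1, limma), and the interaction was −0.76 ± 0.63 (−2.12 to 0.59; adjusted p = 0.957). Without DNBS_GR159897 replicate 1 the Ece1 change was 0.10 on average, −0.18 in the antagonist arm and −0.71 between the DNBS groups, with an interaction of −0.57, and none of these passed. In the 2 antagonist comparisons and the interaction limma called 0 of 12777 or 12778 genes, with unadjusted p under 0.05 for 8.13% of genes between the DNBS groups, 1.7% between the saline groups and 3.58% in the interaction.

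**Figure D2:**
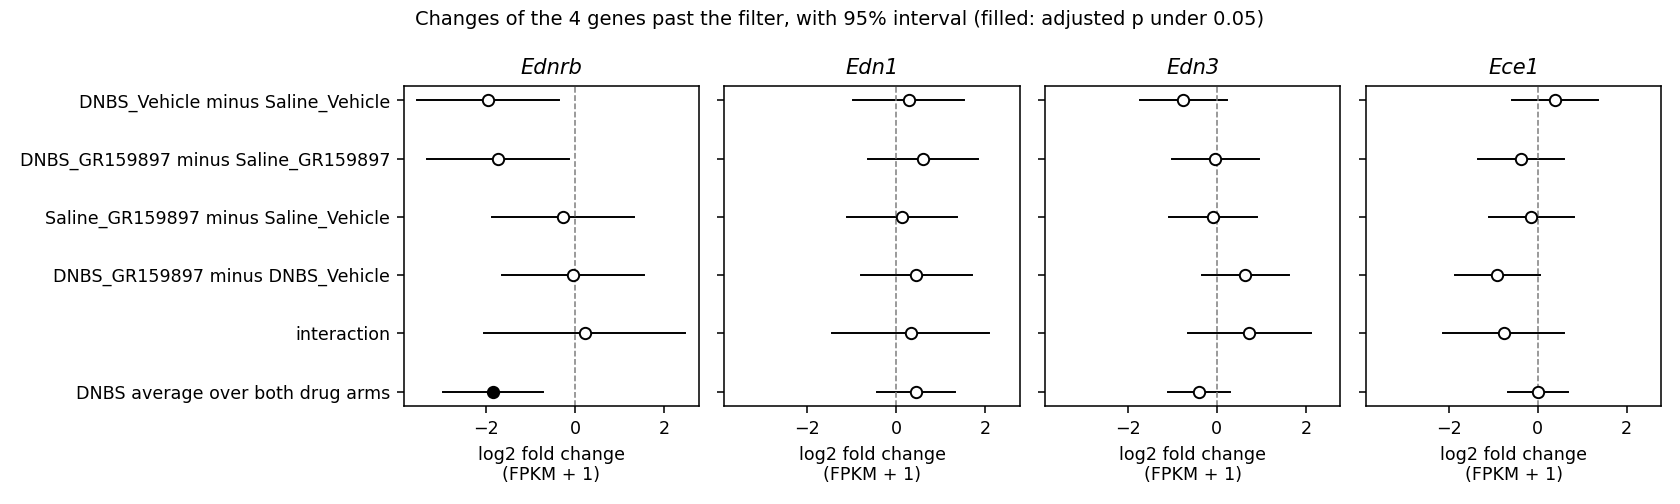
Change of the 4 genes that passed the filter on low values, as log2 fold change of FPKM + 1 (horizontal axis) with its 95% interval, in the 6 comparisons; filled points have an adjusted p under 0.05. Ednrb averaged over both drug arms, at −1.85, is the one filled point, and the other intervals but those of Ednrb in the separate DNBS comparisons cross 0.

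The order of the members, on the per-length FPKM scale, differed between the enemas. Ece1 had the highest level of the 5 in 6 of 6 DNBS libraries and in 1 of 6 saline libraries, Saline_GR159897 replicate 2. Ednrb had the highest level in 0 of 6 DNBS libraries and in 5 of 6 saline libraries. By mean level, Ednrb stood above 63.6% of the genes past the filter in DNBS_GR159897 and 67.7% in DNBS_Vehicle, against 87.2% in Saline_GR159897 and 86.2% in Saline_Vehicle. For Ece1 these shares were 81.3% in DNBS_GR159897 and 87.4% in DNBS_Vehicle, against 80.4% in Saline_GR159897 and 81.4% in Saline_Vehicle.

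Glial marker genes moved with Ednrb. Of 12 enteric glial markers tested in the average DNBS contrast, 4 were called lower and 0 higher, with a median change of −1.33 against −0.18 for all genes. This compares with 6.83% of all genes called lower. Those 4 were Gpm6b, a membrane proteolipid of glia and neurons (−2.58 ± 0.52, limma adjusted p = 0.0136), Sox10, the neural crest transcription factor (−2.98 ± 0.80, adjusted p = 0.0374), Erbb3, the neuregulin receptor (−1.18 ± 0.32, adjusted p = 0.0388), and the merged locus of Npdc1 and Entpd2, an ectonucleotidase of glia (−2.17 ± 0.63, adjusted p = 0.0487). With DNBS_GR159897 replicate 1 left out, 3 of the 12 were called lower: Gpm6b (−2.08, limma adjusted p = 0.00377), Erbb3 (−1.07, adjusted p = 0.0404) and the Npdc1 and Entpd2 locus (−1.58, adjusted p = 0.0332). With the annotated share of each library as a term none of the 4 was called; Gpm6b was then at −1.15 (limma adjusted p = 0.315) and the Npdc1 and Entpd2 locus at −0.28 (adjusted p = 0.850). Sox10 drives the Cre used to tag the ribosomes. The summed level of 13 glial markers was 18.6 to 1648 FPKM in DNBS libraries and 880 to 1757 FPKM in saline libraries.

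A mean log2 level of the glial markers, without Gfap, Foxd3 and the merged loci of Entpd2 and Cdh19, was used as a term in the model. With it, the average DNBS change of Ednrb was −1.05 ± 0.57 (limma adjusted p = 0.375). Leaving out DNBS_GR159897 replicate 1 gave −0.38 ± 0.55 (limma adjusted p = 0.793). Both fits were added after the values were seen. A second mean, over the 13 glial markers summed above, left out Gfap alone. Ednrb minus that second mean, on the log2 scale, was 0.99, −1.05 and −0.95 in DNBS_GR159897 and −1.69, −0.91 and −2.54 in DNBS_Vehicle. After saline it was 0.00, −1.50 and −0.22 in Saline_GR159897, and 0.22, 0.05 and −0.21 in Saline_Vehicle. On this scale the difference was lowest in 5 of 6 DNBS libraries and Saline_GR159897 replicate 2. It was positive in DNBS_GR159897 replicate 1, where glial markers were nearly absent. The second mean depends on its markers. Foxd3, at 0 in all saline libraries, had 53.75 FPKM in DNBS_Vehicle replicate 2 and 19.69 FPKM in DNBS_GR159897 replicate 3. Sox2 had its highest level, 50.35 FPKM, in DNBS_Vehicle replicate 2. Whether the differences hold with another marker set was not tested. The 3 DNBS_Vehicle libraries lay below the 3 Saline_Vehicle libraries on this scale too. How many of all genes do so on this scale was not computed. By plain FPKM 14.9% of genes did.

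Some macrophage markers rose with DNBS. Of 9 tested, 3 were called higher in the average DNBS contrast: Cd68, a lysosomal glycoprotein (1.25 ± 0.25, limma adjusted p = 0.0142), Mrc1, the mannose receptor (1.28 ± 0.26, adjusted p = 0.0146), and C1qc, a complement subunit (1.51 ± 0.38, adjusted p = 0.0293). Over all genes 2.76% were called higher. In DNBS_Vehicle minus Saline_Vehicle 1 of the 9 was called higher, where 0.321% of all genes were called in either direction. With DNBS_GR159897 replicate 1 left out, 1 of 8 was called higher there. The changes without DNBS_GR159897 replicate 1 were 1.26 for Cd68, 1.27 for Mrc1 and 1.38 for C1qc (limma adjusted p = 0.0159, 0.0187 and 0.0467). With the annotated share as a term all 3 lost the call (limma adjusted p = 0.169 for Cd68, 0.214 for Mrc1 and 0.169 for C1qc). The summed level of 10 macrophage markers was 21.3 to 70.0 FPKM in DNBS libraries and 8.14 to 18.7 FPKM in saline libraries. Among tested markers of endothelium, smooth muscle, fibroblasts, epithelium, mesothelium, interstitial cells of Cajal and neurons, 0 were called in that contrast. When DNBS_GR159897 replicate 1 was left out, Vip, a neuropeptide of neurons, was called higher (1.11, limma adjusted p = 0.0258) and Etv1, a transcription factor of interstitial cells of Cajal, lower (−0.90, adjusted p = 0.0330). Vip was the 1 call of 8 neuron markers (median −0.09) and Etv1 the 1 call of 3 interstitial cell markers (median −0.38). In that fit 1216 of 12482 genes were called, 487 higher and 729 lower. The part of these cells in the Ednrb values was not tested.

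**Figure D3:**
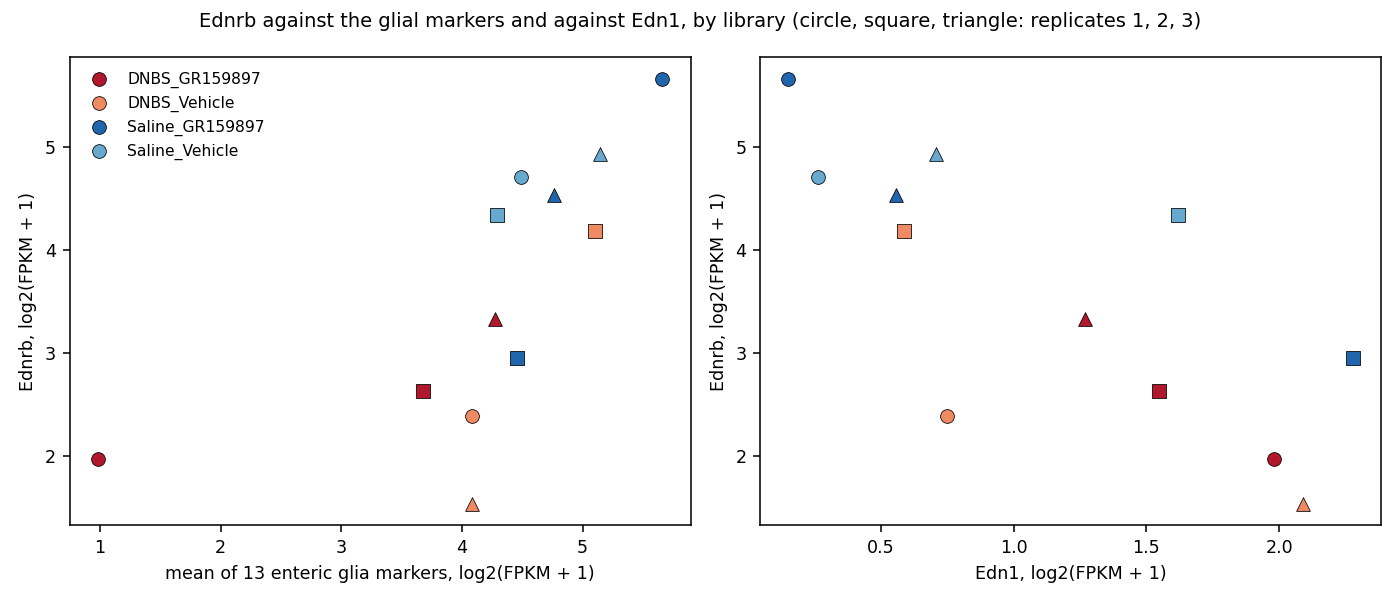
Ednrb (vertical axes, log2(FPKM + 1)) against the mean of 13 glial markers on the left and against Edn1 on the right (horizontal axes, log2(FPKM + 1)) in the 12 libraries; colours are groups and circles, squares and triangles are replicates 1, 2 and 3. Libraries with more glial marker RNA held more Ednrb, DNBS_GR159897 replicate 1 stands alone at the left, and libraries with more Edn1 held less Ednrb.

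Ednrb and Edn1 ran opposite to each other across libraries. Within the 6 DNBS libraries Pearson's r of the log2 levels was −0.78 and Spearman's rho −0.83, and within the 6 saline libraries r was −0.89 and rho −0.83. Without the 2 libraries with Edn1 farthest from the arm's median, r was −0.37 in the remaining 4 DNBS libraries and −0.56 in the remaining 4 saline libraries, so the relation rests in large part on those. Without DNBS_GR159897 replicate 1, r over the other 5 DNBS libraries was −0.75. These are descriptions of libraries that share a scale to all mapped fragments. With the glial marker mean, Ednrb had r = 0.57 within the DNBS libraries (0.75 without DNBS_GR159897 replicate 1) and r = 0.74 within the saline libraries, and 0.18 and 0.24 without the 2 farthest libraries of each arm.

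Over the 12 libraries genes among the 5 most like Ednrb were Capn6, a calpain-family protein (Pearson's r of log2 levels 0.957), Nceh1, a cholesterol ester hydrolase (0.946), Slc2a8, a glucose transporter (0.930), and Ctsf, a lysosomal cathepsin (0.927). Gpm6b stood at 0.817, rank 208 of 12776 genes, Erbb3 at 0.798, rank 289, Sox10 at 0.596 and S100b at 0.532. Among the 5 most like Ece1 were Adamts7, a secreted metalloprotease (0.977), Mpdz, a PDZ scaffold (0.941), Zswim6 (0.898) and Ikbip (0.886). The 5 most like Edn3 were Plcb4, a phospholipase C (0.885), Ranbp10 (0.877), Grk3, a receptor kinase (0.872), 2410089E03Rik (0.866) and Wscd2 (0.845). The 5 most like Edn1 were Snhg7os (0.829), Cit, the citron kinase (0.828), Epb41l4aos (0.824), Rps3a1, a ribosomal protein (0.819), and Gm16973 (0.818). Each is among the top of 12776 genes ranked over the same 12 libraries, which share DNBS differences and DNBS_GR159897 replicate 1, and is given as a description.

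Other genes of endothelin processing gave 1 call. Of 7 listed genes 6 were matched and 3 passed the filter, with a median average DNBS change of 0.51 against −0.18 for all genes. The 1 call was Pcsk7, where 2.76% of all genes were called higher. Pcsk7, a furin-type proprotein convertase, had 24.02, 5.15 and 3.26 FPKM with GR159897 and 2.12, 1.76 and 3.21 FPKM with vehicle after DNBS, against 1.44, 0.63 and 1.94 FPKM with GR159897 and 0.68, 0.41 and 1.31 FPKM with vehicle after saline. It rose with DNBS by 1.42 ± 0.39 (limma adjusted p = 0.0409), with its highest value in DNBS_GR159897 replicate 1, and by 1.04 (adjusted p = 0.0294) without that library. Furin itself gave 0.51 ± 0.24 (limma adjusted p = 0.193) and Ece2, a second converting enzyme, −0.37 ± 0.25 (adjusted p = 0.352). Edn2, Ecel1 and Mme, the neprilysin gene, did not pass the filter; Edn2 was listed at 0 in 9 of 12 libraries.

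Of the genes that carry the signal of the receptors inside the cell, 21 of 23 passed the filter, and 1 was called lower and 0 higher in the average DNBS contrast; 8 changes were positive and 13 negative, with a median of −0.21 against −0.18 for all genes. Of all genes tested 6.83% were called lower and 2.76% higher, 9.6% in all, so 1 call of 21 is not above the background. Gna11, a G protein alpha subunit that couples to phospholipase C, had 3.88, 6.12 and 5.74 FPKM with GR159897 and 15.35, 6.75 and 19.98 FPKM with vehicle after DNBS, against 24.53, 11.21 and 27.01 FPKM with GR159897 and 23.80, 23.87 and 21.43 FPKM with vehicle after saline. It fell by 1.27 ± 0.33 on the log2 scale (limma adjusted p = 0.0355), and by 1.18 without DNBS_GR159897 replicate 1 (adjusted p = 0.0420). Its partner Gnaq gave −0.14 ± 0.32 (limma adjusted p = 0.818). The uncalled genes with the smallest p were Grk2, a receptor kinase, at 0.83 ± 0.28 (limma adjusted p = 0.0752), Rgs2, a regulator of G protein signalling, at −1.08 ± 0.37 (adjusted p = 0.0789) and Gnai2, an inhibitory G protein subunit, at −1.20 ± 0.43 (adjusted p = 0.0912).

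Among 15 genes of Hirschsprung disease and enteric nervous system development, 13 passed the filter; 2 were called lower and 0 higher in the average DNBS contrast, with 10 negative and 3 positive changes and a median of −0.61; over all genes 6.83% were called lower. The 2 were Sox10 and Erbb3, which are also glial markers. Sox10 had 1.3, 4.63 and 6.79 FPKM with GR159897 and 9.04, 183.96 and 127.10 FPKM with vehicle after DNBS, against 238.64, 141.00 and 228.44 FPKM with GR159897 and 178.71, 15.43 and 247.53 FPKM with vehicle after saline. It was low in all 3 DNBS_GR159897 libraries. Of the 3 lists of processing, signalling and development genes, Sox10 was the 1 gene called in a single comparison. That was DNBS_GR159897 minus Saline_GR159897, at −5.41 ± 1.13 (limma adjusted p = 0.0395). The value was −4.90 without replicate 1 of DNBS_GR159897 (limma adjusted p = 0.118). Its average change was −2.72 without DNBS_GR159897 replicate 1 (adjusted p = 0.0837), which ends that call. Erbb3 kept its call without that library (−1.07, limma adjusted p = 0.0404). Gfra1, the GDNF co-receptor, gave −2.26 ± 0.73 (limma adjusted p = 0.0677), and was called without DNBS_GR159897 replicate 1 (−1.51, adjusted p = 0.0439). The value of Ret, the GDNF receptor kinase, was −0.46 ± 0.26 (adjusted p = 0.271, limma). In the other comparisons 0 genes of these 3 lists were called. Like that of Ednrb, these calls were close to the threshold: among the 12 fits without 1 library, Pcsk7 was called in 3, Erbb3 in 4, Gna11 in 5 and Sox10 in 5, with the sign kept in all of them. Among the 9 other settings Pcsk7 was called in 3 (0.73 to 2.02), Erbb3 in 3 (−1.34 to −0.91), Gna11 in 4 (−1.37 to −0.63) and Sox10 in 5 (−3.35 to −1.92).

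**Figure D4:**
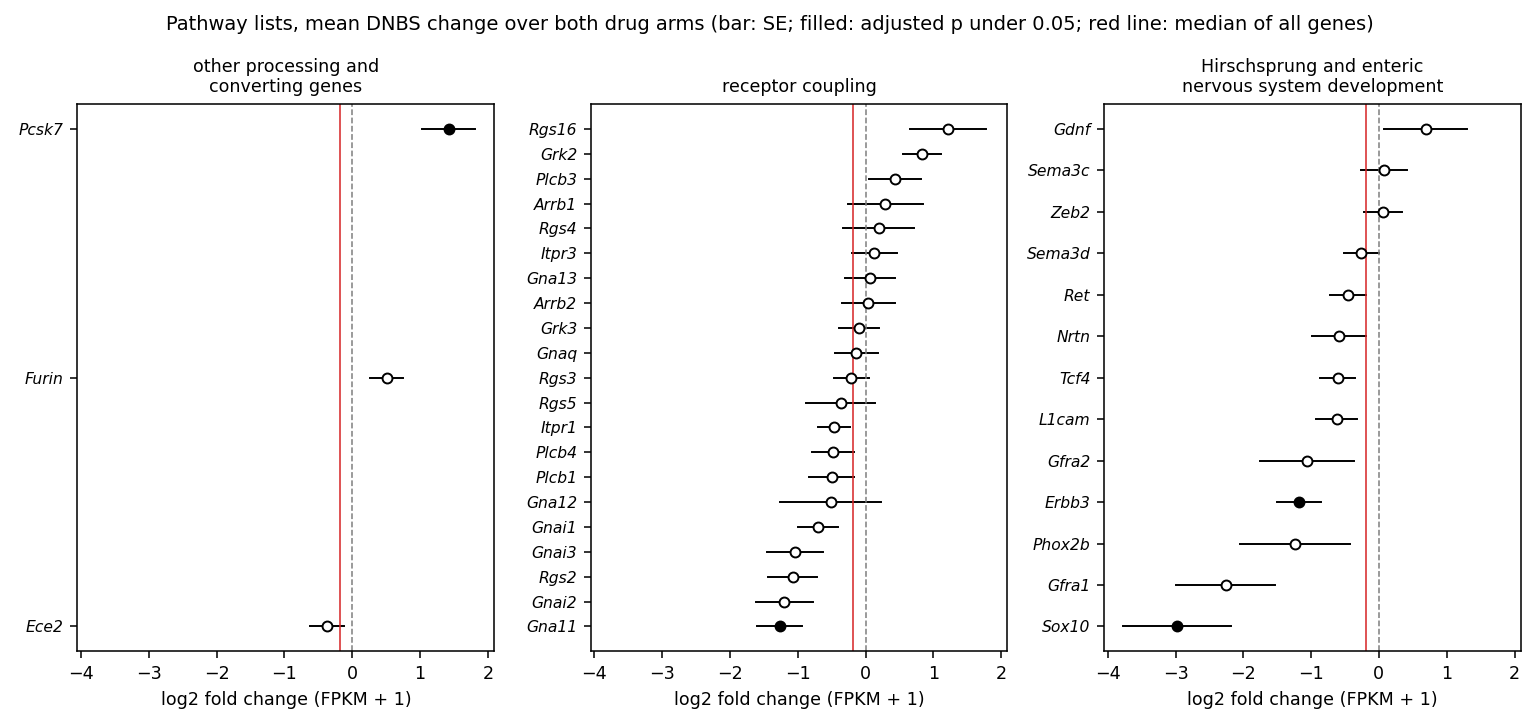
Average DNBS change over both drug arms, as log2 fold change of FPKM + 1 with its SE (horizontal axes), for the tested genes of 3 lists; filled points have an adjusted p under 0.05 and the red line is the median of all genes, −0.18. Pcsk7 is filled on the positive side, and Gna11, Erbb3 and Sox10 on the negative side.

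The average DNBS change of Ednrb was negative in all fits made, while its call depended on the fit. The weakest was −0.38 ± 0.55 (limma adjusted p = 0.793), within 1 SE of 0, with the glial term and without DNBS_GR159897 replicate 1. Among 9 other settings the change was negative in 9 and called in 1, with values between −2.05 and −1.05. Rescaling each library to the same sum over annotated loci gave −1.65 (limma adjusted p = 0.0617), with sex as a term −1.82 (adjusted p = 0.0677), and with the annotated share of each library as a term −1.64 (adjusted p = 0.367). Library weights, with which 3009 of 12777 genes were called, gave −1.96 (adjusted p = 0.00354, limma). Sex was the one recorded split of the samples: females numbered 2 of 3 in DNBS_GR159897 and 1 of 3 in the remaining groups, so no comparison of the groups within 1 sex had replicates in every group.

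**Figure D5:**
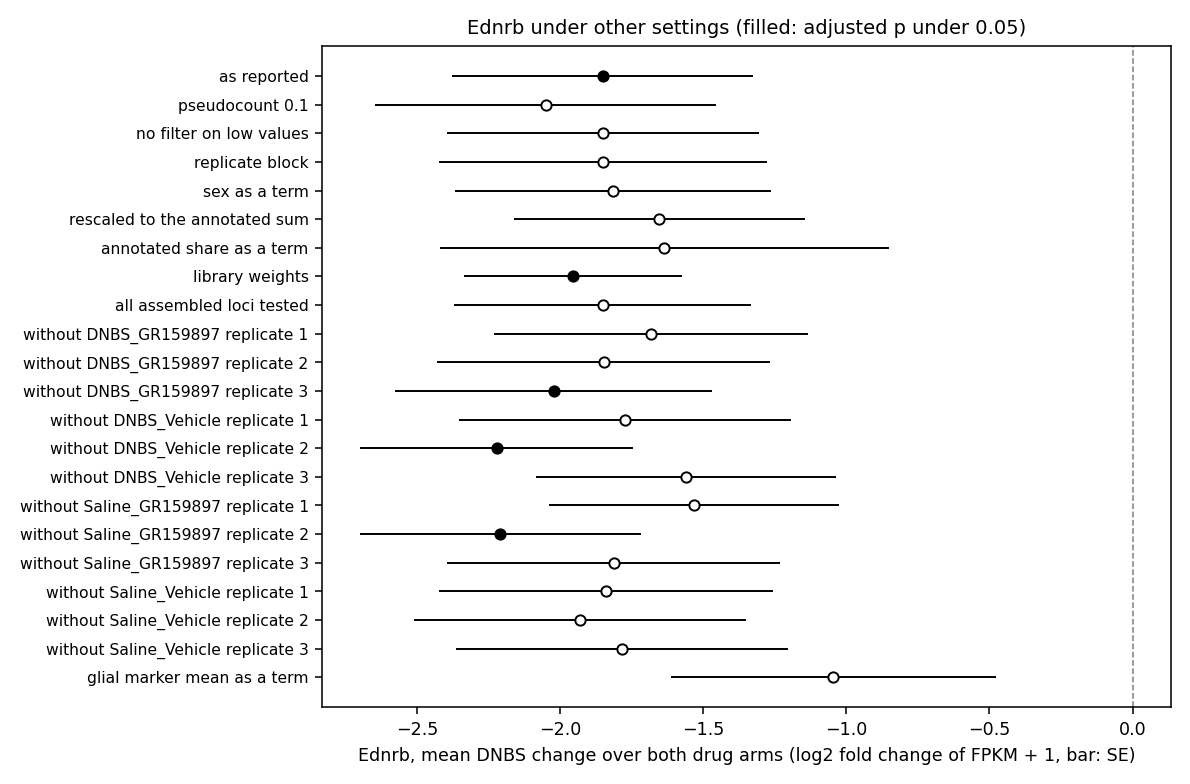
Average DNBS change of Ednrb over both drug arms, as log2 fold change of FPKM + 1 with its SE (horizontal axis), under each setting and without each library (rows); filled points have an adjusted p under 0.05. Every point lies below 0, between −2.22 and −1.05, and few are filled.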

How the data were processed

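Ribosome-bound RNA of 12 mice was measured by RNA-seq. Per the labels' protocols, tagged ribosomes were precipitated from the myenteric plexus, and 1 ng of RNA went through SMART-seq v4 amplification into Nextera libraries read from both ends; StringTie 1.3, HISAT2 2.0, FastQC 0.10.1 and cutadapt 1.10 are the tools listed in the submitters' processing notes. The authors deposited FPKM values per assembled locus and library. Their genome build was not given in the sources used here. Whole-read steps were not found in the low values, so sequencing depth is unknown and counting intervals cannot be computed. In each library 10325 to 11157 genes reached 1 FPKM.

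Of 99547 loci, 24432 held an annotated transcript; 38 duplicates of a symbol with a lower mean were left out. Gfap was blank in 3 libraries and was left out of comparisons with Saline_Vehicle. Values were used as log2(FPKM + 1) for genes that reached 1 FPKM in 3 or more libraries, which understates changes of low genes. limma 3.58.1 (R 4.3.3) fitted 1 coefficient per group over all 12 libraries, with 8 residual degrees of freedom and a trended, robust prior; tests were two-sided, with Benjamini-Hochberg adjustment over all genes and a threshold of 0.05. The comparisons were DNBS against saline in each drug arm and on average, GR159897 against vehicle in each enema arm, and the interaction; they share groups. The procedure was run on simulated data with known changes and independent noise for each gene. Those data hold no library that stands apart, so the run cannot tell how such a library affects the calls. Tables and plots were made in Python 3.11.15 with pandas 2.3.3, numpy 2.4.6 and matplotlib 3.10.9.

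Alternatives were a pseudocount of 0.1, no filter, the replicate number as a block, sex or the annotated share as a term, rescaling to the annotated sum, library weights, all loci, the compared groups alone, and each library left out. The glial marker mean as a term, the fits of listed genes without a library and the permutation test were added after the values were seen. The members, the gene lists and the average DNBS contrast over both drug arms were chosen with earlier results of these data known. The genes named were the 5 members, the 5 most correlated genes of each tested member, the called genes of each list with others of the smallest p, and defining markers; Gpm6b, the other called markers, Vip, Etv1, Gnaq, Ret, Edn2, Ecel1 and Mme were named after their values were seen. Some genes that this rule names are not reported here. Promoter windows are from RefSeq (GRCm38.p6), with 5 of 5 members matched.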

Additional observations from a re-analysis of the deposited data

Results flagged for a closer look

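A second assembled locus bears the name Edn3 but holds no annotated transcript, and it was left out of the comparisons. It had 2.13 FPKM in DNBS_GR159897 replicate 3 and 0.75 FPKM in Saline_GR159897 replicate 2, while 10 libraries, all 3 of Saline_Vehicle among them, list it at 0. In DNBS_GR159897 replicate 3 the annotated Edn3 locus had 0.05 FPKM. Both values are from single libraries of their groups. This is a signal outside the measured loci, and what it is was not tested.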

How the results depend on the processing

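The average DNBS change of Ednrb was negative in every fit run, down to −0.38 ± 0.55 with the glial term and without DNBS_GR159897 replicate 1. It lost its call with a pseudocount of 0.1 (−2.05, limma adjusted p = 0.0573), without the filter (−1.85, adjusted p = 0.106), with sex as a term (−1.82), after rescaling (−1.65), with the annotated share as a term (−1.64), over all loci (−1.85, adjusted p = 0.0552) and with the glial marker mean as a term (−1.05); over these 7 fits and the replicate block 0 members were called, against 1 as reported. Without 1 library it ran from −2.22 to −1.53 (adjusted p 0.0228 to 0.107), with 0 to 1 member called. Library weights called 1 member, Ednrb, in the vehicle arm (−2.26) and in the antagonist arm (−1.65). The replicate numbers do not pair the libraries: over 18 same-number pairs the correlation of deviations ran from −0.09 to 0.20, 2 pairs were over 0.1 and 5 of 12 libraries correlated best with their own number. With the replicate block Ednrb was at −1.85 (limma adjusted p = 0.0699), and 18 genes were called in the vehicle arm and 31 in the antagonist arm. No other member was called in any fit.

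Signs that turned were all of uncalled changes. Edn3 in the antagonist arm was 0.11 after rescaling and 0.75 with weights, and Ece1 there was 0.0539 and 0.0810. For the antagonist in saline mice Edn1 was −0.00245 with a pseudocount of 0.1 and Edn3 was 0.00586 with weights. For the antagonist in DNBS mice Ednrb was 0.0101 with sex, 0.31 after rescaling, 0.13 with the annotated share and 0.26 with weights. On average over both arms Edn1 was −0.0315 with the glial term, and Ece1 was −0.00341 with a pseudocount of 0.1, −0.00209 with sex and −0.16 with the annotated share. Without 1 library, signs turned for Edn1 in the vehicle arm (−0.20 to 0.66), Edn3 in the antagonist arm (−0.27 to 0.28), the antagonist in saline mice for Ednrb (−0.91 to 0.44), Edn1 (−0.51 to 0.55) and Edn3 (−0.35 to 0.15), the antagonist in DNBS mice for Ednrb (−0.65 to 0.68), the interaction for Ednrb (−0.50 to 0.95) and Edn1 (−0.10 to 0.97), and the average for Ece1 (−0.16 to 0.18). Edn3 had no value in 3 of the 12 fits, where it no longer passed the filter, and Ednra had one only without the filter.

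Counts of called genes depended strongly on the setting. In the vehicle arm (41 as reported) they were 21 with a pseudocount of 0.1, 13 without the filter, 24 with sex, 514 with weights, 143 from the compared groups alone and 0 to 183 without 1 library. In the antagonist arm (176, of which 127 lower) they were 42, 18, 25, 2154 and 10 in the same settings, 91 after rescaling (41 lower), 1 with the annotated share, 662 over all loci (203 lower) and 4 to 601 without 1 library. For the antagonist in saline mice (0) they were 1 with a pseudocount of 0.1, after rescaling, with the annotated share and from the compared groups alone, 5 with weights and 0 to 2 without 1 library. For the antagonist in DNBS mice (0) they were 2 with a pseudocount of 0.1, 3 after rescaling, 69 with weights, 79 over all loci and 0 to 6 without 1 library. The interaction (0) gave 2, 1, 5 and 0 to 2 in the matching settings. The average (1226, of which 873 lower) gave 436 without the filter, 800 with sex, 68 with the annotated share (10 lower), 3009 with weights, 169 with the glial term and 402 to 1643 without 1 library; after rescaling it gave 1016 (612 lower) and over all loci 1106 (551 lower). Rescaling moved the median of all genes in the antagonist arm from −0.27 to 0.04 and on average from −0.18 to −0.03. It gave mean levels of 3.25 FPKM for Edn1 in DNBS_GR159897 and 16.4 FPKM for Ece1 in Saline_Vehicle. The receptor ratio with a pseudocount of 0.1 was 3.79 in DNBS_GR159897, 3.70 in DNBS_Vehicle and 5.10 in Saline_Vehicle; without 1 library it ran from 1.56 to 2.73, 1.63 to 2.92, 3.24 to 4.32 and 3.77 to 4.14 in DNBS_GR159897, DNBS_Vehicle, Saline_GR159897 and Saline_Vehicle. Where calls were lost, the cause was not tested.

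Without 1 library, Gpm6b, Cd68 and Mrc1 were called in 12 of 12 fits, C1qc in 6 and the Npdc1 and Entpd2 locus in 3. Among the 9 other settings Gpm6b, Cd68 and Mrc1 were each called in 7, C1qc in 6 and the Npdc1 and Entpd2 locus in 2. Gpm6b, Cd68 and Mrc1 lost the call with the annotated share as a term (limma adjusted p = 0.315, 0.169 and 0.214) and with the glial marker mean as a term, of which Gpm6b is a part (0.0579, 0.0851 and 0.102); with the annotated share Gpm6b was at −1.15 and the Npdc1 and Entpd2 locus at −0.28. The unknown depth limits what can be said of Ednra, Edn1 and Edn3, whose levels were low.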
